A study of Alligator mississippiensis with 4 samples.

Results

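Dorsal dermis was set against ventral dermis of alligator overlapping scales at embryonic stage Es19, the placode stage, with 1 library a side. Every row of the expression table that averaged 1 CPM or more over these libraries was taken (CPM is a read count scaled to a fixed library size), which was 9988 of 10466 rows, and 7983 of them carried a gene symbol. Rows near the limit were MYO19 (mean 1.002 CPM) and GZMK (1.01 CPM) inside, and XYLT1 (0.997 CPM) and PSTPIP1 (0.993 CPM) outside. The study collected dorsal and ventral skin of untreated Alligator mississippiensis embryos from fertilized eggs at Es19 and at the later stage Es22, freed the dermis of its epidermis in a calcium- and magnesium-free solution, and sequenced its RNA as single reads. The methods mention replicate samples, while by the labels there is 1 library per region and stage, and they do not say how many embryos it holds. No strain, sex or genetic change is named for either region. The values therefore have no replicate check, and no p-value is given for the Es19 pair.

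The dermis of the back of amniotes is derived largely from somites, whereas the dermis of the belly and flank is derived from lateral plate mesoderm. Both kinds of dermis signal to the overlying epidermis when placodes form, through WNT, FGF, BMP, hedgehog and Notch pathways, and the regional character of the skin appendage is carried by the dermis. Much of what is known of these genes comes from chicken and mouse, and the roles given here are those known from such species.

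The table held 11701506 reads of dorsal and 11581288 reads of ventral dermis, and 1 read was worth 0.0774 CPM dorsally and 0.0679 CPM ventrally. An absence of reads allows up to 3 reads, which is 0.232 CPM dorsally and 0.204 CPM ventrally. The label as dermis was checked on the levels of markers of dermal fibroblasts, of which 15 passed the limit. COL1A1, a chain of type I collagen, stood at 108686 CPM dorsally and 49609 CPM ventrally. It was the highest gene of both libraries, and with COL1A2 it took 20.1% of the reads of dorsal and 11.0% of those of ventral dermis. Of the markers, DCN and PDGFRA were low in both libraries, with 2.01 CPM dorsally and 1.02 CPM ventrally for DCN and 2.63 CPM dorsally and 2.104 CPM ventrally for PDGFRA; they were named after their values were seen. Between the sides, 14 of these 15 markers had a log2 difference above 0 and 2 were higher by 2-fold or more in dorsal dermis, with a median of 0.58. Epidermal markers were present as well, and the 11 of them that passed the limit had sums of 449 CPM dorsally and 427 CPM ventrally. The kit does not mark strand, so that reads of overlapping genes cannot be told apart, and CPM values are not corrected for length, so that levels are compared between libraries and not between genes.

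At Es19 most genes of the dermis were at similar levels on both sides, and the genes that were far apart were led by transcription factors. On the scale log2(CPM + 1), in which changes of low genes are understated, 258 rows (2.58% of all rows tested) were higher by 2-fold or more in dorsal dermis and 289 rows (2.89%) were at least 2-fold higher in ventral dermis. Together these were 5.48% of the rows, and 9441 rows met neither rule. The middle of the rows lay between log2 differences of -0.18 and 0.19, the 1st and 3rd quartiles. At least 4-fold apart were 48 rows higher in dorsal and 42 rows higher in ventral dermis, and at least 8-fold apart were 5 rows each way. For every one of the 547 rows at least 2-fold apart, the 95% exact (Clopper-Pearson) interval of the ratio lay to one side of 1, and for 186 rows higher in dorsal and 195 rows higher in ventral dermis it lay wholly beyond 2-fold. That every interval lay to one side of 1 follows from the limit on the mean and the 1 CPM added before the logarithm. It is therefore no further support for the differences. These intervals cover counting error only. Of the rows that were 2-fold apart, 126 higher in dorsal and 174 higher in ventral dermis had a mean under 10 CPM. Of the 1491 rows that averaged 100 CPM or more, 25 were higher in dorsal and 14 were higher in ventral dermis. The split depends on the scaling. With the deposited scaling 47.2% of the rows that were 2-fold apart were higher in dorsal dermis, and without the authors' correction for RNA composition this was 31.6%, with 197 dorsal and 426 ventral rows and a shift of the median of all rows by -0.19. Log2 differences below are therefore relative to a median of all rows that is 0.00 as deposited. Gene lists below are counted over the members that had a row and passed the limit on the mean. Every such count stands beside the shares of all rows, 2.58% for dorsal and 2.89% for ventral dermis. The lists were chosen with earlier results of these data known, so that their counts and medians are no independent support for a difference. Many listed genes had no row, among them SHH, BMP4, FGFR1, CTNNB1, KRT5 and COL3A1. The counts therefore do not cover whole pathways or cell types.

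**Figure D1:**
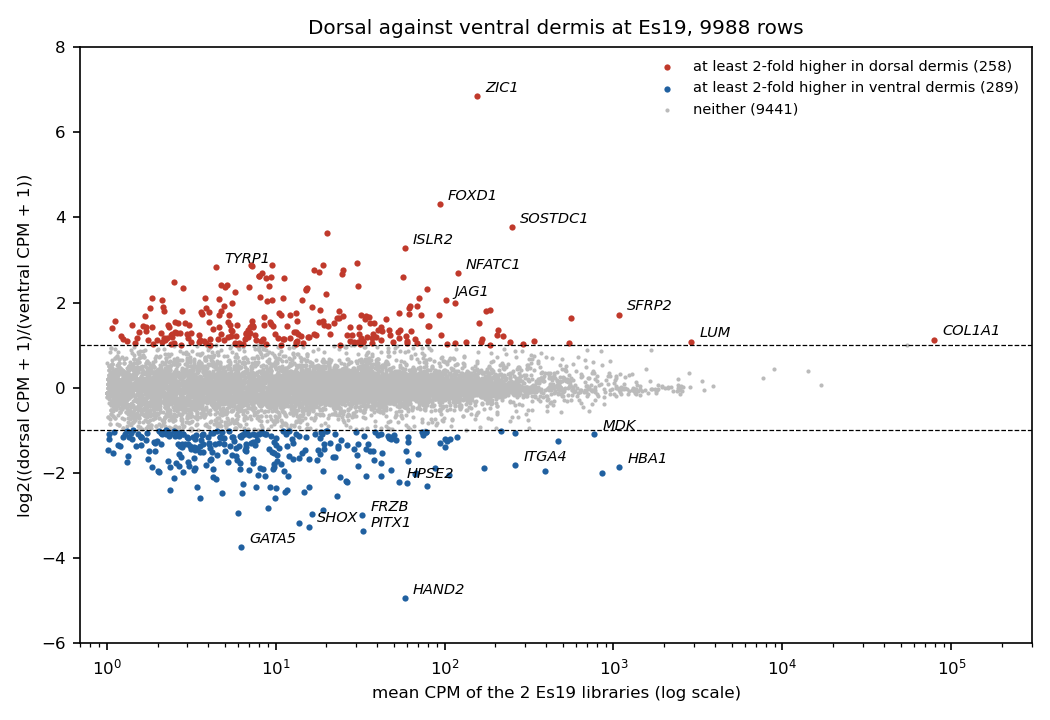
Each point is 1 row of the table at Es19, with the mean CPM of both libraries on a log scale along the x axis and log2((dorsal CPM + 1)/(ventral CPM + 1)) along the y axis. Red points are the 258 rows at least 2-fold higher in dorsal dermis and blue points the 289 rows at least 2-fold higher in ventral dermis, past the dashed lines at 2-fold; ZIC1 and HAND2 stand farthest from the other rows.

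Transcription factors known from somites and the dorsal mesoderm leaned to dorsal dermis, with a median log2 difference of 0.72. At least 2-fold higher were 5 of 15 genes in dorsal and 3 in ventral dermis, against 2.58% and 2.89% of all rows. ZIC1, a zinc finger factor of dorsal somites and of the dermis of the back, had 307 CPM dorsally and 1.70 CPM ventrally, a ratio of 181 (95% interval 123 to 280). It was thus nearly limited to the dorsal library. EYA2, a transcription cofactor of the PAX-SIX-EYA network, had 35.2 CPM dorsally and 10.7 CPM ventrally. DMRT2, a factor of the dermomyotome, had 135 CPM dorsally and 56.4 CPM ventrally. EN1, a homeobox factor of early dermal cells of the back, had 81.7 CPM dorsally and 37.6 CPM ventrally. These 3 genes were clearly present on both sides, with ratios of 3.28 (95% interval 2.73 to 3.96) for EYA2, 2.39 (95% interval 2.20 to 2.60) for DMRT2 and 2.17 (95% interval 1.96 to 2.41) for EN1. EN1 fell under 2-fold without the correction for RNA composition. PAX1, a paired box factor of the sclerotome, was low, with 4.88 CPM dorsally and 1.42 CPM ventrally. On the other side stood SIM2, a bHLH-PAS factor, with 1.01 CPM dorsally and 7.87 CPM ventrally. SIX2, a homeobox factor, had 10.1 CPM dorsally and 33.5 CPM ventrally, and MEOX1, a factor of somites, had 3.02 CPM dorsally and 8.01 CPM ventrally. The list as a whole therefore held differences in both directions.

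Factors known from the lateral plate mesoderm and the limb were split, with 10 of 28 genes at least 2-fold higher in ventral dermis, 5 higher in dorsal dermis and a median log2 difference of -0.26. HAND2, a bHLH factor of the lateral plate, heart and limb, had 2.71 CPM dorsally and 113 CPM ventrally and was 41.8-fold lower in dorsal dermis (95% interval 29.9 to 60.2). GATA5, a zinc finger factor of the heart and the coelomic lining, had no read in dorsal dermis and 12.4 CPM in ventral dermis, at least 53.5-fold lower in dorsal dermis against the limit of 3 reads. TBX20, a T-box factor known for its role in the heart, had 0.0774 CPM, which is 1 read, in dorsal dermis and 4.68 CPM in ventral dermis. GATA5 and TBX20 were thus at the limit of detection in the dorsal library. PITX1, a homeobox factor of the hindlimb field, had 4.95 CPM dorsally and 60.6 CPM ventrally, 12.2-fold lower in dorsal dermis (95% interval 9.49 to 16.0). SHOX, a homeobox factor of limb growth, had 2.17 CPM dorsally and 29.3 CPM ventrally, 13.5-fold lower in dorsal dermis (95% interval 9.23 to 20.6). BARX1, a homeobox factor of stomach and face mesenchyme, had 0.619 CPM dorsally and 11.3 CPM ventrally. The other 4 genes of the list that were higher in ventral dermis were TBX3, IRX2, MSX1 and MSX2, named after their values were seen. Of the 5 genes higher in dorsal dermis, LMX1B is the homeobox factor that sets the dorsal side of the limb, and it had 37.4 CPM dorsally and 9.97 CPM ventrally, a ratio of 3.75 (95% interval 3.11 to 4.54). PRRX2, a paired-related factor of mesenchyme, had 222 CPM dorsally and 105 CPM ventrally. EMX2, a homeobox factor, had 49.0 CPM dorsally and 20.9 CPM ventrally. PRRX2 and EMX2 fell under 2-fold without the correction for RNA composition. The others were DLX6, with 6.50 CPM dorsally and 1.56 CPM ventrally, and TFAP2C, an AP-2 factor also expressed by epidermis and so also on the epidermal list, with 26.0 CPM dorsally and 4.41 CPM ventrally. In bulk RNA, fewer cells of a type and less RNA per cell cannot be told apart.

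Among other transcription factors of dermis and mesenchyme, 5 of 23 genes were higher by 2-fold or more in dorsal and 1 in ventral dermis, with a median log2 difference of 0.36. FOXD1, a forkhead factor of kidney stroma and other mesenchyme, had 179 CPM dorsally and 8.01 CPM ventrally, a ratio of 22.4 (95% interval 18.6 to 27.1), and its log2(CPM + 1) difference of 4.32 was second only to ZIC1 among rows with a symbol. NFATC2, a factor activated by calcineurin, had 33.5 CPM dorsally and 6.45 CPM ventrally. Its relative NFATC1 was not on the list and had 208 CPM dorsally and 31.2 CPM ventrally, a ratio of 6.67 (95% interval 6.04 to 7.38). Both NFAT genes named here were thus over 5-fold higher in the dorsal library, by ratios of 5.20 for NFATC2 and 6.67 for NFATC1. RUNX3, a Runt factor, had 83.8 CPM dorsally and 24.1 CPM ventrally. SOX18, a factor of blood and lymph vessels that mouse dermal papillae also express, had 111 CPM dorsally and 33.1 CPM ventrally. TRPS1, a zinc finger factor that is mutated in a human syndrome with sparse hair, was low, with 2.55 CPM dorsally and 0.271 CPM ventrally. BNC2, a zinc finger factor of connective tissue, went the other way, with 14.6 CPM dorsally and 38.4 CPM ventrally.

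Of 18 Hox genes, which give cells their position along the body axis, 14 were within 2-fold, and the 4 that were not were divided by cluster. HOXC10 had 54.0 CPM dorsally and 18.2 CPM ventrally, and HOXC11 had 45.0 CPM dorsally and 19.3 CPM ventrally. HOXA9 had 14.2 CPM dorsally and 34.4 CPM ventrally, and HOXA11 had 1.16 CPM dorsally and 6.58 CPM ventrally. Both posterior HOXC genes were thus higher in the dorsal and both posterior HOXA genes in the ventral library, and HOXC11 fell under 2-fold without the composition correction. The labels do not give the level along the body from which either piece of skin was taken, so that body level and side cannot be told apart.

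**Figure D2:**
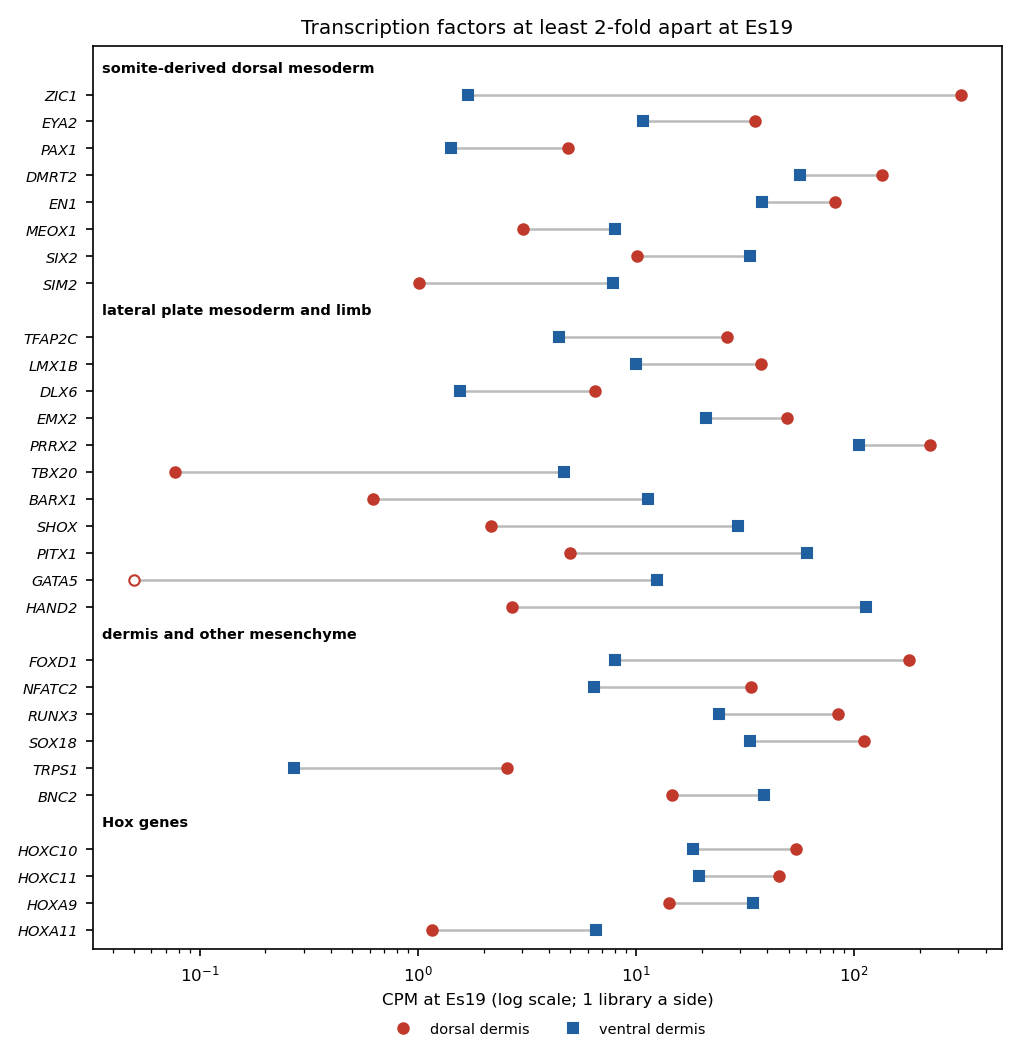
CPM at Es19 on a log scale for the transcription factors named from 4 gene lists, with dorsal dermis as red circles and ventral dermis as blue squares, 1 library each; the open circle of GATA5 stands for no read and is drawn at the left edge. ZIC1 (307 CPM dorsally and 1.70 CPM ventrally) and HAND2 (2.71 CPM dorsally and 113 CPM ventrally) lie at opposite ends.

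The WNT pathway acts upstream of placode formation. The 8 of 19 listed WNT ligands that passed the limit differed little between the sides, while several antagonists and receptors were far apart. None of 8 WNT ligands was 2-fold apart, and the widest were WNT5A, with 427 CPM dorsally and 253 CPM ventrally (log2 difference 0.75), and WNT16, with 22.4 CPM dorsally and 35.2 CPM ventrally (log2 difference -0.63). Of 36 receptors, modulators and targets, 6 were higher by 2-fold or more in dorsal and 4 in ventral dermis, with a median log2 difference of 0.19 that fell to 0.01 without the composition correction. SOSTDC1, a secreted antagonist of BMP and WNT signals, had 466 CPM dorsally and 33.1 CPM ventrally, a ratio of 14.1 (95% interval 12.8 to 15.5). SFRP2, a secreted frizzled-related protein, had 1649 CPM dorsally and 500.2 CPM ventrally, a ratio of 3.30 (95% interval 3.21 to 3.39). FRZB, another secreted frizzled-related protein, had 6.50 CPM dorsally and 58.7 CPM ventrally and was 9.03-fold lower in dorsal dermis (95% interval 7.21 to 11.4). These secreted antagonists thus did not share a side. APCDD1, a membrane inhibitor and target of the pathway, had 733 CPM dorsally and 356 CPM ventrally. DACT1, a modulator that binds Dishevelled, had 391 CPM dorsally and 191 CPM ventrally. Both were just past 2-fold and fell under it without the composition correction. LGR6, a receptor for R-spondins, had 13.4 CPM dorsally and 0.950 CPM ventrally, and RSPO1, an R-spondin ligand, had 7.28 CPM dorsally and 31.0 CPM ventrally. FZD10, a frizzled receptor, had 26.3 CPM dorsally and 6.31 CPM ventrally, whereas FZD8 had 2.32 CPM dorsally and 11.7 CPM ventrally. Receptor and ligand genes of this pathway therefore stood on both sides as well. GPC3, a glypican, was the last of the 4 higher in ventral dermis, with 3.25 CPM dorsally and 10.1 CPM ventrally.

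In the hedgehog pathway 2 of 9 genes were higher by 2-fold or more in dorsal dermis and none in ventral dermis, with a median log2 difference of -0.01 that was -0.16 without the composition correction. Both are genes that hedgehog signalling is known to induce as its own inhibitors. PTCH1, the hedgehog receptor, had 238 CPM dorsally and 82.3 CPM ventrally, a ratio of 2.89 (95% interval 2.70 to 3.09). HHIP, a membrane protein that binds and holds the ligand, had 78.5 CPM dorsally and 29.8 CPM ventrally, a ratio of 2.63 (95% interval 2.35 to 2.95). The other 7 genes were within 2-fold, and of all 9 genes 4 were above 0 and 5 below 0. Of 22 genes listed only these 9 had a row. Whether hedgehog signalling itself differed between the sides was not tested.

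In the Notch pathway 3 of 10 genes were higher in dorsal and none in ventral dermis, against 2.58% and 2.89% of all rows. The median log2 difference was 0.56. These 10 were the genes with a row among 28 listed, and NOTCH1 and HES1 had none. JAG1, a Notch ligand, had 166 CPM dorsally and 39.2 CPM ventrally, a ratio of 4.23 (95% interval 3.86 to 4.65). HEY2, a bHLH repressor induced by Notch, had 98.4 CPM dorsally and 15.5 CPM ventrally, a ratio of 6.36 (95% interval 5.52 to 7.35). HEY1, its close relative, had 14.6 CPM dorsally and 4.68 CPM ventrally, a ratio of 3.11 (95% interval 2.35 to 4.16). A ligand gene and genes known as Notch targets were thus higher together in the dorsal library, while the other 7 genes were within 2-fold. Whether Notch signalling itself differed between the sides was not tested.

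Retinoic acid, a signal made from retinol in 2 enzyme steps, had its synthesis genes split between the sides. RDH10, which makes retinal from retinol, had 132 CPM dorsally and 25.8 CPM ventrally, a ratio of 5.11 (95% interval 4.57 to 5.72). ALDH1A3, which makes retinoic acid from retinal, had 115 CPM dorsally and 26.2 CPM ventrally, a ratio of 4.41 (95% interval 3.94 to 4.94). ALDH1A2, an enzyme of the same step, had 3.87 CPM dorsally and 34.5 CPM ventrally and was 8.91-fold lower in dorsal dermis (95% interval 6.65 to 12.2). ALDH1A3 and ALDH1A2 were thus each over 4-fold apart between the sides, in opposite directions. ALDH1A1, also on the list, had no row. RARB, a retinoic acid receptor that the signal itself induces, had 8.82 CPM dorsally and 27.6 CPM ventrally. TGM2, a transglutaminase also induced by retinoic acid, had 6.89 CPM dorsally and 18.4 CPM ventrally. Of the 11 genes of the list, 2 were thus higher in dorsal and 3 in ventral dermis, with a median log2 difference of -0.02.

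BMP and TGF-beta genes were mostly within 2-fold, with 4 of 39 higher in dorsal and 1 higher in ventral dermis, and the median log2 difference was -0.17. Of all rows 2.58% were higher by 2-fold or more in dorsal and 2.89% in ventral dermis. GDF10, a BMP-like ligand, had 52.5 CPM dorsally and 15.7 CPM ventrally, a ratio of 3.35 (95% interval 2.88 to 3.90). BMP6, a BMP ligand, had 10.3 CPM dorsally and 3.39 CPM ventrally, and VWC2, a secreted BMP antagonist, had 9.36 CPM dorsally and 1.63 CPM ventrally. SMAD3, which carries the TGF-beta signal to the nucleus, had 67.9 CPM dorsally and 31.7 CPM ventrally and fell under 2-fold without the composition correction. These 4 were on the dorsal side, whereas 21 of the 39 genes were below 0. MSTN, a muscle growth inhibitor of the TGF-beta family, had 0.542 CPM dorsally and 3.32 CPM ventrally. BMP8A, outside the list, had 1.47 CPM dorsally and 16.5 CPM ventrally, 11.2-fold lower in dorsal dermis (95% interval 7.03 to 18.9).

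In lists of other growth factor families few genes were past 2-fold, and by small counts more of these were higher in ventral dermis. Over all rows 2.89% were higher by 2-fold or more in ventral and 2.58% in dorsal dermis. Of 19 FGF pathway genes with a row, from 48 listed, 1 was higher in dorsal and 3 in ventral dermis. Their median log2 difference was 0.00. Of 16 genes of EDA, EGF, PDGF and HGF signalling none was higher in dorsal and 3 were higher in ventral dermis, with a median of -0.52. FGF7, a ligand from mesenchyme to epithelium, had 14.1 CPM dorsally and 30.9 CPM ventrally. MDK, the heparin-binding growth factor midkine, had 489 CPM dorsally and 1044 CPM ventrally, 2.13-fold lower in dorsal dermis (95% interval 2.07 to 2.20). EDARADD, the adaptor of the ectodysplasin receptor that placodes need, had 3.02 CPM dorsally and 11.7 CPM ventrally. The last of these is best known from epidermis. PDGFC, a PDGF ligand, had 7.58 CPM dorsally and 16.3 CPM ventrally. ETV1, a transcription factor induced by FGF signals, was the 1 gene of its list that was higher in dorsal dermis, with 92.6 CPM dorsally and 44.4 CPM ventrally. It fell under 2-fold without the composition correction. FGF12 and FLRT3, a membrane protein that binds FGF receptors, completed the list. In the IGF axis 2 of 14 genes were higher in ventral and none in dorsal dermis, with a median log2 difference of -0.13. IGFBP2, an IGF-binding protein, had 15.3 CPM dorsally and 43.0 CPM ventrally. HTRA3, a serine protease that is also counted on the protease list, had 40.6 CPM dorsally and 172 CPM ventrally. Among 13 chemokine and cytokine genes 1 was higher in dorsal and 3 in ventral dermis. CXCL14, a chemokine made by epithelia and mesenchyme, had 43.5 CPM dorsally and 6.04 CPM ventrally, a ratio of 7.20 (95% interval 5.75 to 9.11). LEPR, the leptin receptor, had 2.63 CPM dorsally and 17.5 CPM ventrally.

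**Figure D3:**
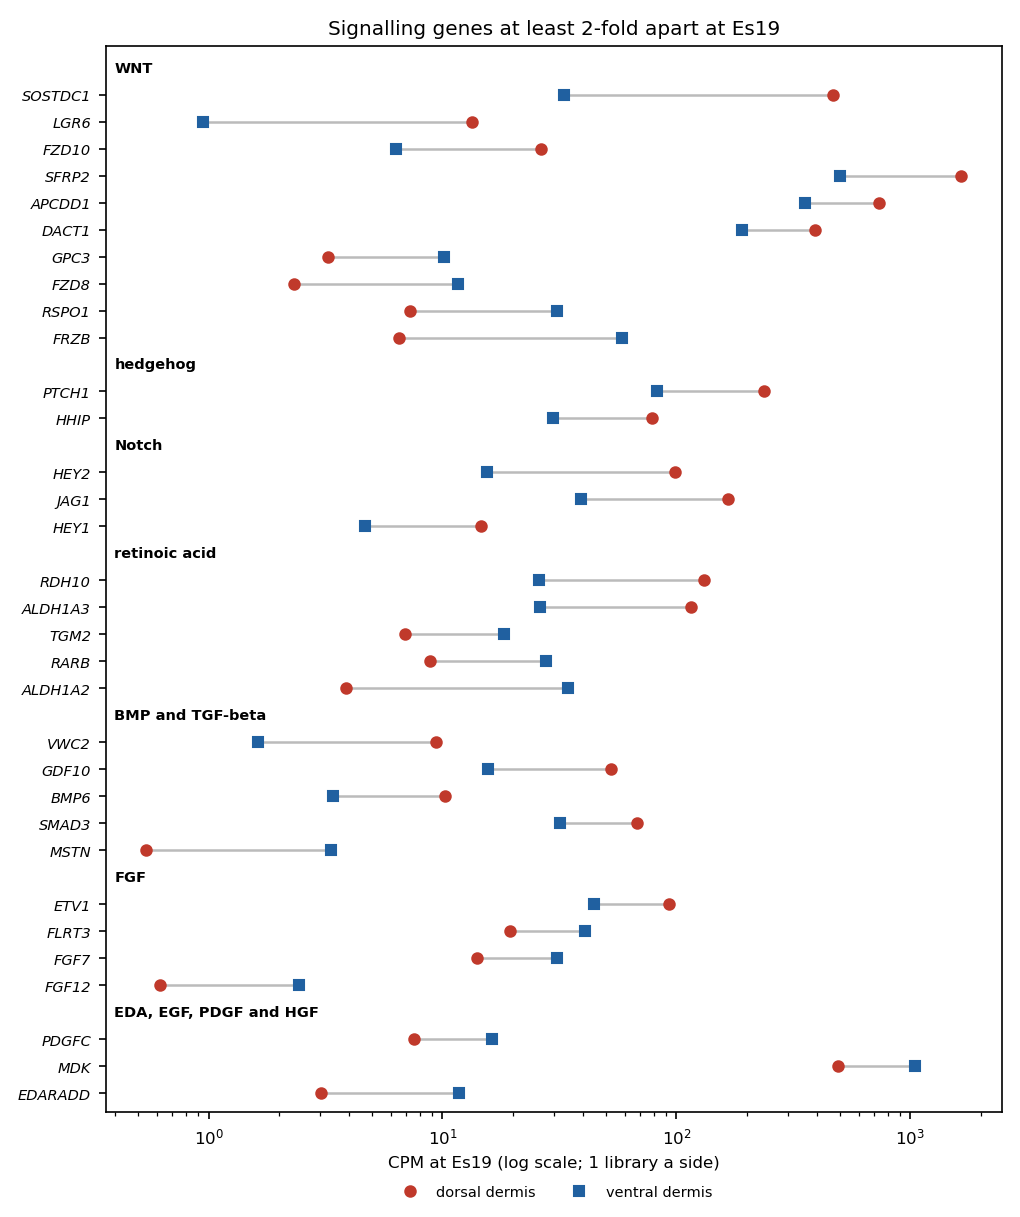
CPM at Es19 on a log scale for the signalling genes at least 2-fold apart in 7 pathway lists, with dorsal dermis as red circles and ventral dermis as blue squares, 1 library each. Both hedgehog and all 3 Notch genes drawn are higher in dorsal dermis, and the retinoic acid genes lie on both sides, with RDH10 at 132 CPM dorsally and 25.8 CPM ventrally and ALDH1A2 at 3.87 CPM dorsally and 34.5 CPM ventrally.

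Among the members past 2-fold, more extracellular matrix genes were higher in dorsal dermis and more matrix proteases in ventral dermis, while most members of these lists were within 2-fold. The dorsal counts depend in part on the scaling. COL1A1, ADAMTS3, LUM and LAMC3, all counted as higher in dorsal dermis, fell under 2-fold without the composition correction. Of 40 collagen genes and genes of collagen processing, 5 were higher by 2-fold or more in dorsal and 2 in ventral dermis, with a median log2 difference of 0.26, and 0.09 without the composition correction. COL1A1 was 2.19-fold higher in dorsal dermis (95% interval 2.18 to 2.20), and COL1A2, the other chain of type I collagen, was 1.99-fold higher, with 73047 CPM dorsally and 36703 CPM ventrally. Without the correction COL1A1 also fell under 2-fold. ADAMTS3, which cuts the end off fibrillar procollagens, had 231 CPM dorsally and 104 CPM ventrally. COL23A1, a transmembrane collagen, had 26.3 CPM dorsally and 4.41 CPM ventrally, a ratio of 5.97 (95% interval 4.56 to 7.90). COL19A1, a collagen found near basement membranes, had 31.9 CPM dorsally and 3.46 CPM ventrally as the sum of 2 rows. The higher collagens thus ranged from the most abundant gene to minor ones. COL9A3, a type IX collagen chain, had 11.2 CPM dorsally and 3.53 CPM ventrally. COL11A2, a type XI collagen chain of cartilage, had 4.57 CPM dorsally and 26.9 CPM ventrally, and COL15A1, a collagen of vessel walls, had 20.6 CPM dorsally and 46.3 CPM ventrally.

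Of 46 small leucine-rich proteoglycans and other matrix proteins, 6 were higher in dorsal and 3 in ventral dermis, with a median log2 difference of 0.24. LUM, a proteoglycan that spaces collagen fibrils, had 3917 CPM dorsally and 1844 CPM ventrally, a ratio of 2.12 (95% interval 2.09 to 2.16), and fell under 2-fold without the composition correction. LAMA2, a laminin chain, had 286 CPM dorsally and 121 CPM ventrally. SPON1, the secreted matrix protein F-spondin, had 96.7 CPM dorsally and 25.9 CPM ventrally. All of these were well measured, with means above 50 CPM. SPOCK3, a testican proteoglycan, had 117 CPM dorsally and 42.3 CPM ventrally. EMILIN3, from the list of elastic fibre proteins, had 844 CPM dorsally and 272 CPM ventrally, a ratio of 3.10 (95% interval 2.99 to 3.21), and was the 1 of 20 genes of that list past 2-fold. DPT, dermatopontin, a matrix protein of dermis, had 15.4 CPM dorsally and 68.4 CPM ventrally, 4.44-fold lower in dorsal dermis (95% interval 3.81 to 5.20). It was the 1 fibroblast marker of 15 that was 2-fold higher in ventral dermis. FREM2, a protein of the basement membrane between epidermis and dermis, had 11.7 CPM dorsally and 30.1 CPM ventrally.

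Of 38 matrix proteases and inhibitors, 1 was higher in dorsal and 7 in ventral dermis, against 2.58% and 2.89% of all rows. Their median log2 difference was -0.07. The 1 gene higher in dorsal dermis was ADAMTS3, which is also counted on the collagen list. HTRA3 was 4.22-fold lower in dorsal dermis (95% interval 3.84 to 4.65). PLAT, the tissue plasminogen activator, had 19.7 CPM dorsally and 77.2 CPM ventrally. ADAM19, a membrane metalloprotease, had 30.4 CPM dorsally and 87.5 CPM ventrally. ADAMTS5 and ADAMTS8, which cut proteoglycans, stood at 2.399 CPM dorsally and 9.30 CPM ventrally for ADAMTS5, and at 190 CPM dorsally and 385 CPM ventrally for ADAMTS8 as the sum of 2 rows. Serine proteases and metalloproteases were both among them. Of 42 genes of glycosaminoglycan synthesis and turnover, 2 were higher in dorsal and 6 in ventral dermis, with a median of 0.03. HPSE2, a heparanase-like protein that binds heparan sulfate, had 18.4 CPM dorsally and 88.8 CPM ventrally, 4.82-fold lower in dorsal dermis (95% interval 4.19 to 5.56). KIAA1199 and TMEM2, both known from hyaluronan degradation, had 2.79 CPM dorsally and 11.9 CPM ventrally for KIAA1199, and 2.86 CPM dorsally and 13.3 CPM ventrally for TMEM2. Both lists thus had more members past 2-fold on the ventral side, although their medians were close to 0. CHST7 and CHSY3, enzymes of chondroitin sulfate synthesis, went the other way, with 16.7 CPM dorsally and 4.27 CPM ventrally for CHST7, and 8.36 CPM dorsally and 2.71 CPM ventrally for CHSY3.

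Most axon guidance and adhesion genes were within 2-fold, and those past it lay in both directions. Over all rows 2.58% were at least 2-fold higher in dorsal and 2.89% in ventral dermis. Of 43 guidance genes 5 were higher in dorsal and 4 in ventral dermis, with a median log2 difference of 0.11. SEMA4F, a membrane semaphorin, had 54.3 CPM dorsally and 6.24 CPM ventrally, a ratio of 8.69 (95% interval 6.98 to 10.9). SLIT2, a secreted ligand of ROBO receptors, had 290 CPM dorsally and 81.5 CPM ventrally, a ratio of 3.56 (95% interval 3.33 to 3.80). ROBO3, a receptor of the ROBO family, had 37.3 CPM dorsally and 139 CPM ventrally, 3.74-fold lower in dorsal dermis (95% interval 3.38 to 4.14). The ligand and this receptor were thus higher on opposite sides. NTN1, a netrin, had 32.1 CPM dorsally and 11.0 CPM ventrally as the sum of 2 rows. SEMA5A, a semaphorin, had 21.4 CPM dorsally and 63.8 CPM ventrally. EPHA2, an ephrin receptor, and EFNA5, an ephrin, were just past 2-fold on the dorsal side and fell under it without the composition correction. Of 39 adhesion receptors 2 were higher in dorsal and 3 in ventral dermis, 34 were within 2-fold, and the median log2 difference was -0.01. ITGA4, the alpha 4 integrin subunit, had 115 CPM dorsally and 410 CPM ventrally, 3.56-fold lower in dorsal dermis (95% interval 3.36 to 3.77). VCAM1, a cell surface ligand of that integrin, had 0.851 CPM dorsally and 5.84 CPM ventrally. Integrin and ligand were both lower in dorsal dermis. PCDH8, a protocadherin, had 8.13 CPM dorsally and 1.15 CPM ventrally.

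Further genes led the ranking from outside the lists. ISLR2, a leucine-rich membrane protein known from neurons, had 106 CPM dorsally and 9.97 CPM ventrally, a ratio of 10.6 (95% interval 8.97 to 12.7). NTS, the peptide neurotensin, had 44.3 CPM dorsally and 5.70 CPM ventrally. NXPH1, a secreted ligand of neurexins, had 30.03 CPM dorsally and 3.60 CPM ventrally. All 3 are best known from the nervous system, and of 14 markers of Schwann cells and neurons 1 was higher in dorsal and 1 in ventral dermis, with summed levels of 619 CPM dorsally and 541 CPM ventrally. BEND4, a BEN domain protein, had 34.2 CPM dorsally and 3.80 CPM ventrally, and COL7A1L had 32.0 CPM dorsally and 4.003 CPM ventrally. CPNE9, a copine that binds membranes with calcium, had 13.5 CPM dorsally and 1.02 CPM ventrally. On the ventral side CD55, a membrane protein that restrains complement, had 2.71 CPM dorsally and 31.3 CPM ventrally as the sum of 2 rows. STC1, the secreted glycoprotein stanniocalcin, had 2.09 CPM dorsally and 17.7 CPM ventrally. The cation channels TRPC4 and TRPV4 stood with them, with 6.04 CPM dorsally and 40.1 CPM ventrally for TRPC4, and 0.310 CPM dorsally and 6.85 CPM ventrally for TRPV4. GPR20, an orphan receptor, had 3.87 CPM dorsally and 25.5 CPM ventrally. GABRD, a GABA receptor subunit, had 0.774 CPM dorsally and 8.82 CPM ventrally, and CCDC85A had 1.24 CPM dorsally and 11.5 CPM ventrally. Rows with no gene symbol also stood among the widest, such as gene14405, with 38.2 CPM dorsally and 2.17 CPM ventrally, and gene5945, with 2.94 CPM dorsally and 29.8 CPM ventrally.

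Genes of some other cell types differed between the sides, and pigment and blood genes did so in opposite directions. Of 19 listed markers of pigment cells 11 had a row, and all 11 were above 0, 6 of them at least 2-fold higher in dorsal dermis, with a median log2 difference of 1.06 and summed levels of 375 CPM dorsally and 199 CPM ventrally. TYRP1, an enzyme of melanin synthesis, had 8.51 CPM dorsally and 0.339 CPM ventrally, a ratio of 25.1 (95% interval 10.4 to 78.8). TRPM1, a channel of melanocytes, had 33.2 CPM dorsally and 10.9 CPM ventrally, and EDNRB2, the endothelin receptor of bird and reptile pigment cells, had 67.6 CPM dorsally and 28.2 CPM ventrally. The enzyme DCT and the melanosome protein GPNMB were also higher in dorsal dermis, with 3.87 CPM dorsally and 0.746 CPM ventrally for DCT, and 3.95 CPM dorsally and 0.339 CPM ventrally for GPNMB. None of these markers was without reads in either library.

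Red blood cell markers were the list farthest to the ventral side, with 10 of 13 genes at least 2-fold higher in ventral dermis, none higher in dorsal dermis and a median log2 difference of -1.24. Their summed levels were 967 CPM dorsally and 3333 CPM ventrally. HBA1, an alpha globin, had 465 CPM dorsally and 1701 CPM ventrally, 3.66-fold lower in dorsal dermis (95% interval 3.56 to 3.77), and HBZ, an embryonic globin, had 344 CPM dorsally and 1371 CPM ventrally. Vessel markers leaned the same way. Of 24 endothelial genes 21 were below 0, 5 of them at least 2-fold, with a median of -0.64 and sums of 528 CPM dorsally and 633 CPM ventrally. KDR, the VEGF receptor of endothelium, had 19.7 CPM dorsally and 50.7 CPM ventrally. TEK, the angiopoietin receptor, went against the list, with 62.0 CPM dorsally and 22.3 CPM ventrally, and so did SOX18. Of 9 smooth muscle and pericyte genes 4 were higher in ventral dermis, with a median of -0.74 and sums of 320 CPM dorsally and 468 CPM ventrally. RGS5, a pericyte gene, had 1.39 CPM dorsally and 5.77 CPM ventrally. The part of blood and vessel cells in the other ventral differences was not tested.

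The leukocyte markers held none past 2-fold, although 15 of 16 were below 0, with a median log2 difference of -0.35 and sums of 40.9 CPM dorsally and 56.2 CPM ventrally. Of 11 epidermal markers 1 (TFAP2C) was higher in dorsal and 2 in ventral dermis, with a median of -0.01 and sums of 449 CPM dorsally and 427 CPM ventrally. The epidermal genes higher in ventral dermis were DSP, which anchors keratin at desmosomes, with 0.851 CPM dorsally and 5.22 CPM ventrally, and the keratin KRT8, with 4.72 CPM dorsally and 11.2 CPM ventrally. The levels of these 11 markers were therefore of similar sum on both sides, and the epidermal genes named here made up only a small part of these sums. Of 41 epidermal markers listed, only 14 had a row. KRT8 is also on the list of mesothelium and coelomic lining, as is ALDH1A2. Of the 5 genes of that list that passed the limit, these were the 2 higher in ventral dermis. None was higher in dorsal dermis, and the median was -0.34. Of 22 skeletal muscle markers 1 was higher in dorsal and 2 in ventral dermis, with sums of 334 CPM dorsally and 358 CPM ventrally. Of all 22 markers 7 were above 0 and 15 below 0, with a median of -0.22. MYH7, a slow myosin heavy chain, had 49.5 CPM dorsally and 14.5 CPM ventrally, whereas MYL1, a fast myosin light chain, had 7.20 CPM dorsally and 17.8 CPM ventrally, and MYOG, a factor of differentiating muscle cells, had 1.32 CPM dorsally and 5.36 CPM ventrally. The muscle genes past 2-fold thus did not share a side, while most of the list lay below 0. At Es22 the muscle markers had sums of 671 CPM dorsally and 2164 CPM ventrally, with a median of -1.63. TNMD, a membrane protein of tendon cells, had 301 CPM dorsally and 116 CPM ventrally and was the 1 of 7 tendon markers past 2-fold. SOX9, a factor of cartilage and tendon progenitors, had 13.5 CPM dorsally and 3.60 CPM ventrally, and 2 of 14 cartilage and bone markers were higher in dorsal and 1 in ventral dermis.

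**Figure D4:**
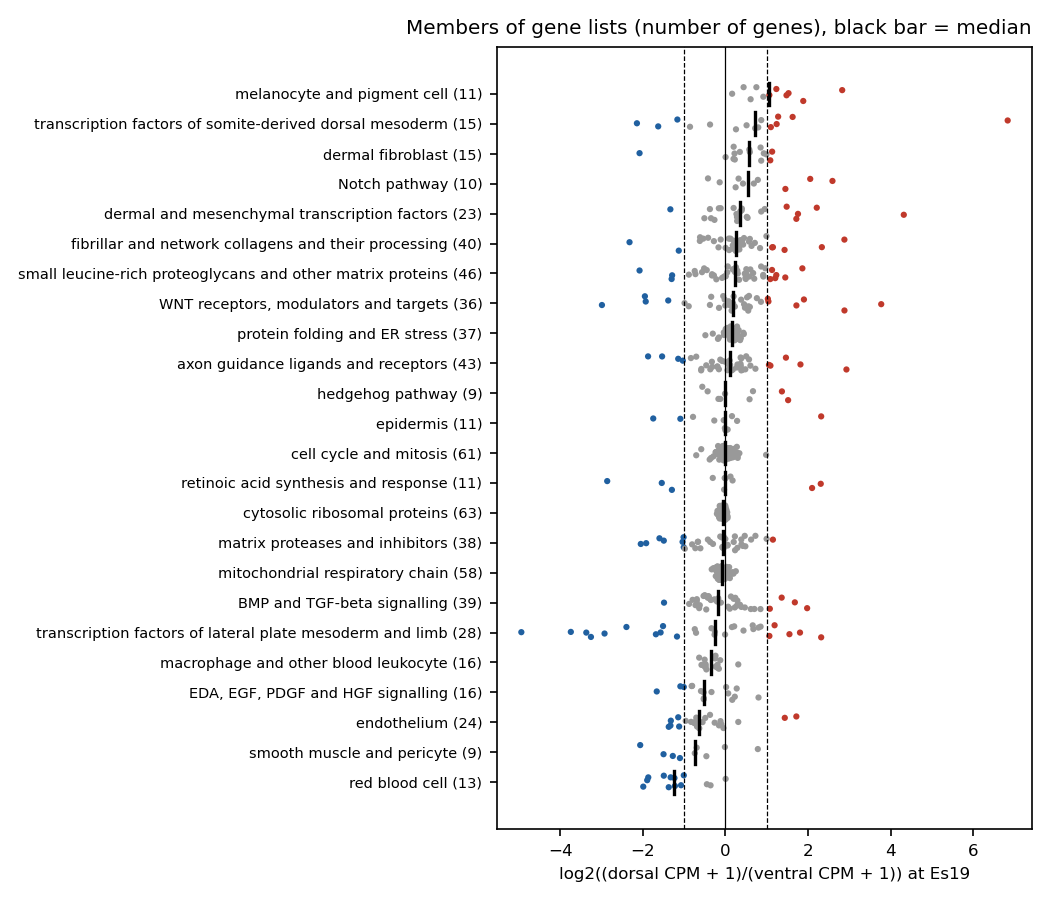
Each point is 1 gene of a list, placed by log2((dorsal CPM + 1)/(ventral CPM + 1)) at Es19, for 24 of the lists, ordered by their medians, which are drawn as black bars. Red and blue points are genes 2-fold or more higher in dorsal dermis and in ventral dermis, and the medians run from 1.06 for pigment cells to -1.24 for red blood cells, with cell cycle and ribosomal genes close to 0.

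The basic functions of the cells hardly differed. None of 61 genes of the cell cycle, 63 ribosomal proteins, 58 subunits of the respiratory chain and 37 genes of protein folding was 2-fold apart. Their median log2 differences were -0.01, -0.05, -0.08 and 0.16 in that order, and the last of these was -0.04 without the composition correction. The widest in the cell cycle list were CDKN2C, with 4.88 CPM dorsally and 1.97 CPM ventrally, and CDKN1A, with 1.32 CPM dorsally and 2.78 CPM ventrally, both inhibitors of cyclin-dependent kinases. Immediate-early and stress genes, which often move with the handling of tissue, had 1 of 43 genes past 2-fold and a median of -0.21. That gene was BTG1, an inhibitor of proliferation, with 144 CPM dorsally and 291 CPM ventrally. Of 20 genes of hypoxia and glycolysis 1 was past 2-fold. It was SLC2A3, a glucose transporter, with 1.08 CPM dorsally and 3.39 CPM ventrally.

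The lists of chicken feather-associated and scale-associated genes, which the study took from chicken skin, were also compared between the sides. Of 52 feather-associated genes 10 were higher by 2-fold or more in dorsal and 5 in ventral dermis, with a median log2 difference of 0.13 that was -0.07 without the composition correction. Besides ZIC1, RUNX3, SOX18 and TEK, the widest on the dorsal side was FRMD3, a FERM domain protein, with 4.95 CPM dorsally and 1.15 CPM ventrally. SLC22A16, a carnitine transporter, was the widest on the ventral side, with 2.24 CPM dorsally and 9.50 CPM ventrally. Of 71 scale-associated genes 7 were higher in dorsal and 8 in ventral dermis, with a median of 0.03 that was -0.14 without the correction. This list also holds genes named above, with NFATC2, VWC2 and SLIT2 on the dorsal side and PITX1 and SHOX on the ventral side. NFATC2 and PITX1 were its widest members in each direction. ASTN1, a membrane protein of migrating neurons, had 19.1 CPM dorsally and 5.16 CPM ventrally. PI16, a protease inhibitor domain protein of fibroblasts, had 0.697 CPM dorsally and 3.19 CPM ventrally.

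The Es22 libraries, which share no library with the Es19 pair, were used to see which of these differences appeared in a second pair. The epidermal markers were uneven in that pair, with sums of 1716 CPM dorsally and 748 CPM ventrally. The part of epidermis in the Es22 differences was not tested. Of the 258 rows higher in dorsal dermis at Es19, 59 (22.9%) were also higher by 2-fold or more in dorsal dermis at Es22, which is 28.4% of the 208 rows that were so at Es22. Of all rows 2.08% were higher by 2-fold or more in dorsal dermis at Es22. A further 194 met neither rule at Es22, and 5 were at least 2-fold higher in ventral dermis there. Of the 289 rows higher in ventral dermis at Es19, 48 (16.6%) were also higher in ventral dermis at Es22, which is 26.1% of the 184 such rows, against 1.84% of all rows. For these, 231 met neither rule and 10 were higher in dorsal dermis at Es22. Of the rows higher in dorsal dermis at Es19 73.3% lay above 0 at Es22, against 48.6% of all rows, and of those higher in ventral dermis 68.2% lay below 0, against 51.4% of all rows.

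Some regional transcription factors and pigment genes were among the genes seen at both stages. The dorsal lean of whole factor lists at Es19 was not seen at Es22. The median log2 difference of the somite list was 0.72 at Es19 and -0.05 at Es22. That of the other dermal and mesenchymal factors was 0.36 at Es19 and -0.21 at Es22. The lateral plate and limb list leaned to ventral dermis at both stages, with -0.26 at Es19 and -0.38 at Es22. Pigment markers, summed, had 861 CPM dorsally and 268 CPM ventrally at Es22. At Es22 ZIC1 had 204 CPM dorsally and 4.13 CPM ventrally, HAND2 had 7.30 CPM dorsally and 113 CPM ventrally, and GATA5 had no read dorsally and 6.29 CPM ventrally. TYRP1 had 55.9 CPM dorsally and 3.40 CPM ventrally at Es22, and CXCL14 had 457 CPM dorsally and 105 CPM ventrally. ALDH1A2 had 6.53 CPM dorsally and 30.8 CPM ventrally at Es22, and DPT had 43.6 CPM dorsally and 210 CPM ventrally. In these genes the side that was higher at Es19 was higher at Es22 too. The row farthest apart at Es22 among them, gene16783, has no gene symbol and was named after its values were seen. It had 4.95 CPM dorsally and 0.0679 CPM, which is 1 read, ventrally at Es19, and 2774 CPM dorsally and 3.30 CPM ventrally at Es22.

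Other genes far apart at Es19 were close at Es22. FOXD1 had 123 CPM dorsally and 132 CPM ventrally at Es22, after 179 CPM dorsally and 8.01 CPM ventrally at Es19. ISLR2 had 15.8 CPM dorsally and 15.6 CPM ventrally at Es22, and NFATC1 had 126 CPM dorsally and 119 CPM ventrally. In FOXD1 and NFATC1 the ventral level at Es22 was above that at Es19, whereas in ISLR2 the dorsal level at Es22 was below that at Es19. SFRP2 had 802 CPM dorsally and 867 CPM ventrally at Es22. JAG1 had 137 CPM dorsally and 120 CPM ventrally at Es22, and HEY2 had 51.0 CPM dorsally and 72.9 CPM ventrally. The median log2 difference of the Notch list was 0.56 at Es19 and -0.15 at Es22. Of the hedgehog genes, PTCH1 had 122 CPM dorsally and 174 CPM ventrally at Es22, so that the side with the higher level was not the one of Es19. SOSTDC1 had 534 CPM dorsally and 367 CPM ventrally at Es22. On the ventral side, FRZB had 10.7 CPM dorsally and 19.8 CPM ventrally at Es22, and BMP8A had 6.44 CPM dorsally and 4.23 CPM ventrally. With 1 library for each region and stage, whether the difference between the sides depends on the stage was not tested. Red blood cell markers, summed, were at 10928 CPM dorsally and 13170 CPM ventrally at Es22, and their median log2 difference there was -0.27.

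**Figure D5:**
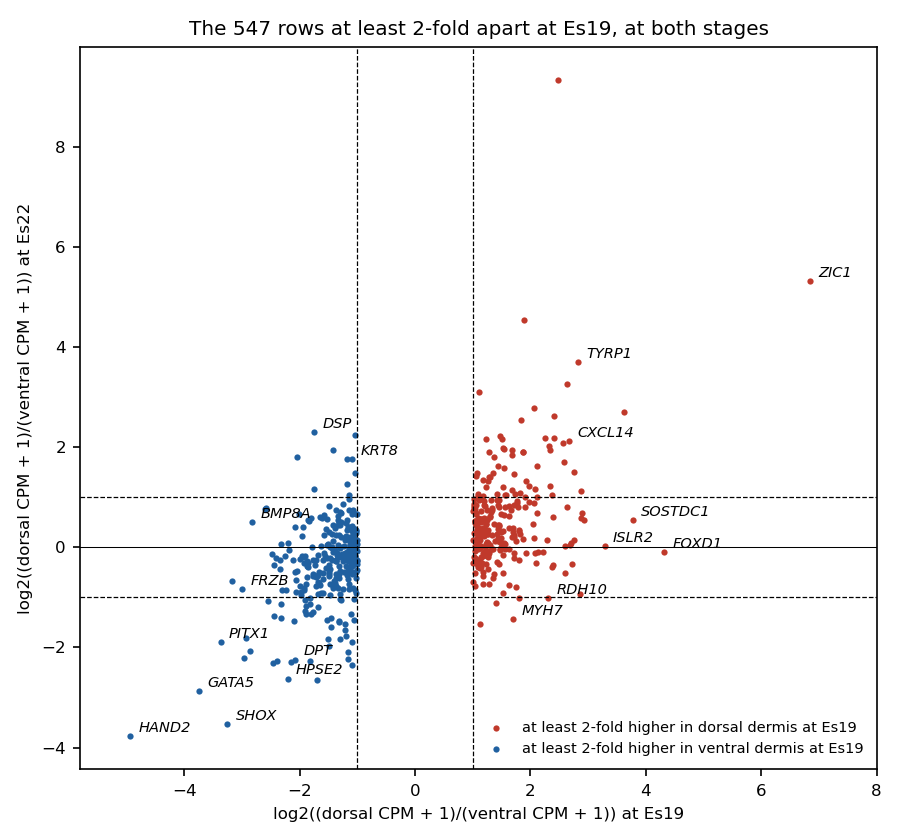
The 547 rows at least 2-fold apart at Es19, with log2((dorsal CPM + 1)/(ventral CPM + 1)) at Es19 along the x axis and the same quantity at Es22 along the y axis; red rows were higher in dorsal and blue rows in ventral dermis at Es19, and dashed lines mark 2-fold. ZIC1, TYRP1, HAND2, GATA5 and SHOX lie far from 0 at both stages, whereas FOXD1 and ISLR2 lie near 0 at Es22, with log2 differences of -0.10 and 0.02.

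A region difference averaged over both stages was tested over all 4 libraries, with region and stage as terms. The disagreement between the stages stands in for replicate error and leaves 1 residual degree of freedom. limma draws the error of each row toward a trend over all rows, so that a p-value does not rest on that row alone. limma called 24 of 10236 rows (0.234%) at a Benjamini-Hochberg adjusted p of 0.05, 14 with the higher level in dorsal and 10 in ventral dermis. All of them were at least 2-fold apart at Es19. The test includes the Es19 libraries, so that this overlap and the adjusted p-values below are no independent check of the Es19 differences. The edgeR quasi-likelihood test on recovered reads called 56 rows (0.547%). Transcription factors called by limma were ZIC1 (log2 difference between regions 6.08, adjusted p = 0.026), TFAP2C (2.17, adjusted p = 0.0315), HAND2 (-4.36, adjusted p = 0.026), SHOX (-3.40, adjusted p = 0.026), GATA5 (-3.31, adjusted p = 0.0315) and TBX20 (-2.33, adjusted p = 0.0483). Matrix genes called by limma were SPON1 (1.88, adjusted p = 0.0287), COL23A1 (2.14, adjusted p = 0.0315), DPT (-2.16, adjusted p = 0.026) and HPSE2 (-2.42, adjusted p = 0.0315). ALDH1A2 (-2.47, adjusted p = 0.0483), CXCL14 (2.39, adjusted p = 0.0287), TYRP1 (3.26, adjusted p = 0.0315) and TNMD (1.58, adjusted p = 0.0483) were called by limma as well. With upper-quartile scaling 12 rows higher in dorsal and 6 in ventral dermis were called, and TNMD, ALDH1A2 and TBX20 did not pass, each with an adjusted p of 0.0647 in limma. PITX1 (-2.63) did not pass in limma, with an adjusted p of 0.108, and passed in edgeR, with an adjusted p of 0.00831. The test gives no answer for differences seen at Es19 alone, such as that of FOXD1. TFAP2C is also on the epidermal list and CXCL14 is also made by epithelia, and epidermal markers were uneven at Es22. The part of epidermis in these calls was not tested.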

How the data were processed

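Of the dermis, 1 RNA-seq library per region and stage was used. The deposited values are CPM that the authors scaled with TMM factors, handled here as a normalized signal. Column sums therefore differ (905638 for dorsal and 785850 for ventral dermis). STAR is the aligner of the paper's methods, whereas processing notes by the submitters give HTSeq, edgeR, Partek 3 and TopHat2 2.1.0. Which annotation was used is not given in the sources used. Without the TMM factors (at Es19 1.10 for dorsal and 1.27 for ventral dermis), the second-highest library of each row reaches 1.03 CPM or more. Dividing by the value of 1 read gave whole numbers within 0.05 for 99.8% of Es19 values, and these recovered reads gave the intervals and the edgeR test. Reads without molecular identifiers are not independent molecules.

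Rows were compared by log2((dorsal CPM + 1)/(ventral CPM + 1)), with rows that share a symbol summed for lists. Members and all 43 lists were chosen with earlier results of these data known. Named genes are the 15 widest symbols each way, up to 6 members past 2-fold of each list and direction (otherwise its 2 widest) and the 10 highest means; exceptions are stated. limma 3.58.1 (intensity trend) and edgeR 4.0.16 ran in R 4.3.3, and other steps in Python 3.11.15 (pandas 2.3.3, numpy 2.4.6, matplotlib 3.10.9, scipy 1.17.1). The region test was also run on simulated reads that held no stage effect. That run therefore does not show the error rate of the test for these libraries. Alternatives were other pseudocounts, filters, scalings, fold limits and models. Some genes are not reported here and were left out of the lists. The authors' chicken libraries were not analysed here.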

Additional observations from a re-analysis of the deposited data

Results flagged for a closer look

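List members that were 2-fold or more apart at both stages, in opposite directions, are given with the difference between the stages, which is the log2 difference dorsal over ventral at Es19 minus that at Es22. With 1 library for each region and stage, this difference was not tested. MSX2 was named outside the rule for named genes, after its values were seen.

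Higher in dorsal dermis at Es19 and in ventral dermis at Es22 were 3 genes. RDH10, the retinol dehydrogenase, had 132 CPM dorsally and 25.8 CPM ventrally at Es19 and 68.9 CPM dorsally and 140 CPM ventrally at Es22 (3.32). MYH7, the slow myosin heavy chain, had 49.5 CPM dorsally and 14.5 CPM ventrally at Es19 and 27.2 CPM dorsally and 75.2 CPM ventrally at Es22 (3.14). LAMC3, a laminin chain, had 7.12 CPM dorsally and 2.71 CPM ventrally at Es19 and 2.02 CPM dorsally and 7.74 CPM ventrally at Es22 (2.66).

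Another 4 genes were higher in ventral dermis at Es19 but in dorsal dermis at Es22. DSP had 0.851 CPM dorsally and 5.22 CPM ventrally at Es19 and 19.7 CPM dorsally and 3.20 CPM ventrally at Es22 (-4.05). KRT8 had 4.72 CPM dorsally and 11.2 CPM ventrally at Es19 and 96.5 CPM dorsally and 27.8 CPM ventrally at Es22 (-2.85). Both are on the epidermal list, and KRT8 is on the mesothelium list too. The summed level of the epidermal markers at Es22 was 1716 CPM dorsally and 748 CPM ventrally. MSX2, a homeobox factor of mesenchyme and epithelium, had 2.63 CPM dorsally and 7.19 CPM ventrally at Es19 and 17.7 CPM dorsally and 4.54 CPM ventrally at Es22 (-2.93). ITGA10, a collagen-binding integrin subunit, had 11.8 CPM dorsally and 25.2 CPM ventrally at Es19 and 20.4 CPM dorsally and 6.60 CPM ventrally at Es22 (-2.53).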

How the results depend on the processing

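The 258 rows at least 2-fold higher in dorsal dermis became 129 with a pseudocount of 5 and 48 at 4-fold, and the 289 rows higher in ventral dermis became 439 with a pseudocount of 0.1, 118 with a pseudocount of 5, 175 with a mean of at least 5 CPM and 42 at 4-fold. The other filters and scalings kept both counts within 1.5 times, including 197 dorsal and 426 ventral rows without the TMM factors. Of 177 genes past 2-fold, 65 fell under it with a pseudocount of 5 and 18 without the TMM factors, and none changed sign in any setting. These 177 were all list members past 2-fold and the top-ranked genes past it, and not all of them are named above. The 24 rows called by limma over both stages became 56 in edgeR, 18 with upper-quartile scaling (12 dorsal and 6 ventral, against 14 and 10), and 0 when stage was left out of the model, where 256 rows had an unadjusted p under 0.05, against 773 in the fit with stage. Counting error is small beside most of the differences, but variation between embryos is not measured, and no library could be left out, with 1 a side. The labels carry no replicate numbers, so that the regions were paired by stage alone, through the stage term.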
